A study of Homo sapiens with 9 samples.

Results

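The γH2AX peaks around the centromeres of the 22 human autosomes were taken from 8 peak lists. A peak was counted as pericentromeric where its midpoint lay within 5 Mb of 1 of 22 given positions on GRCh38, 1 for each autosome and each close to the middle of the centromere. The rule used position alone and no measured value. Of the 4797 and 4343 peaks of the 2 untreated lists, 133 and 127 were pericentromeric. The windows held 539 of 17680 and 426 of 14016 peaks with APH, 2186 of 79950 and 1888 of 69977 peaks with HU, and 422 of 12216 and 382 of 10488 peaks with MMS. The lists came from a lymphoblastoid line of human B lymphocytes, named GM09027A in the sample labels and GM07027 in the study's methods, so a single cell line stands for every group. Cells were left untreated or were treated for 24 h with aphidicolin (APH, 0.1 μg/mL in the labels, while the methods give the dose in molar units), hydroxyurea (HU, 2 mM) or methyl methanesulfonate (MMS, 200 μM), with 2 independent treatments and ChIPs for each condition. All groups were compared by the authors with an input library, which was not analysed here.

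γH2AX is histone H2AX phosphorylated by the kinases that answer DNA breaks and stalled replication forks. APH inhibits replicative DNA polymerases, HU lowers the supply of nucleotides by inhibiting ribonucleotide reductase, and MMS methylates DNA bases. Centromeres are the sites where the kinetochore is built in mitosis. Human centromeres lie in long arrays of alpha satellite, a tandem repeat whose monomers carry in part a binding site of the centromere protein CENP-B, and are flanked by other satellites, segmental duplications and few genes. On the short arms of the acrocentric chromosomes 13, 14, 15, 21 and 22, the ribosomal RNA genes lie beside the centromere. In such repeats a short read often fits many places, and a read without a unique place is removed when reads are filtered on mapping quality.

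The authors kept reads of high mapping quality only and ran MACS2 for broad peaks, replicate by replicate, at an uncorrected p-value limit. Each peak carries a fold enrichment, the ratio of its reads to the background the caller assumed, with a p-value and a q-value, which corrects p for the number of positions tested. How many reads lie behind a list is not given in it, and depth is unknown. The number of peaks in a list can follow depth as well as treatment, and these could not be told apart. Densities were therefore compared within each list, as the number of peaks per Mb in the windows divided by that in the rest of the autosomes. With HU, 77.3% and 57.3% of the pericentromeric peaks had a q-value of at most 0.05. In the 6 other lists this share was 1.11% to 6.30%, or 5 to 11 peaks in each list.

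Most merged pericentromeric sites held a peak in a single list, and 11 held one in 6 or more lists. Some of these 11 are shown first. They were chosen for a peak in all 8 lists or for low q-values in all lists other than HU. A single site of each of the chromosomes 21 and 16 held a peak in all 8 lists, and 3 sites in satellite arrays of chromosome 17 held a peak in all 6 lists other than HU. The middle 300 bases of 4 of them are shown on the plus strand of GRCh38 to let these repeats be compared. On chromosome 21, capitals mark runs of 3 or more TC dinucleotides. On chromosome 16 they mark GGAAT or its reverse complement, the unit of a pericentromeric satellite. On chromosome 17 they mark the fixed letters and spacers of the CENP-B box, TTCGNNNNANNCGGG, read on both strands.
chr21:8234370-8234669: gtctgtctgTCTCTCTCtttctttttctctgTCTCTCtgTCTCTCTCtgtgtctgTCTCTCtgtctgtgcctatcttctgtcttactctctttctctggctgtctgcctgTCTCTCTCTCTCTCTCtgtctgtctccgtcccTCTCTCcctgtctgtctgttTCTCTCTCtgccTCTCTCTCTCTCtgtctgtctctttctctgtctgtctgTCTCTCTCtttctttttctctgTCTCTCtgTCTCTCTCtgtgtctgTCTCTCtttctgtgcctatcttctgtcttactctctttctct
chr16:34588057-34588356: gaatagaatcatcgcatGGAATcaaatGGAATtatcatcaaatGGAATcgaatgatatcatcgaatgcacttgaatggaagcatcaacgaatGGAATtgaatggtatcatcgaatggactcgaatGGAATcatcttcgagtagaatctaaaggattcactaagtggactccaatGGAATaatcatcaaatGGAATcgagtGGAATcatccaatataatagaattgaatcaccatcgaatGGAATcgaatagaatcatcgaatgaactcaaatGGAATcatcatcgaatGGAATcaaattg
chr17:25920081-25920380: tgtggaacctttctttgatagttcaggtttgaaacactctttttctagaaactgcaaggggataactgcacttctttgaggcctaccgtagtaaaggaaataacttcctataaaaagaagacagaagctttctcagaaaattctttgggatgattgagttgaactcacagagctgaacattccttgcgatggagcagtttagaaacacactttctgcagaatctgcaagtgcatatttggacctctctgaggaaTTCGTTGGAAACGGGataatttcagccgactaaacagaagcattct
chr17:26881226-26881525: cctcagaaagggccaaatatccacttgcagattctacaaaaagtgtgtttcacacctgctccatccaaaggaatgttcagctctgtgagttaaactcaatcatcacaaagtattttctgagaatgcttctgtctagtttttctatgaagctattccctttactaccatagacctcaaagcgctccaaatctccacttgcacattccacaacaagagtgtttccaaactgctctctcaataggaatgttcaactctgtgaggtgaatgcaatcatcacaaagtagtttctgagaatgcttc

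The site of chromosome 21 (chr21:8234147-8234893) was 86.9% C or T on the plus strand. It overlapped no gene of GENCODE 44 and lay 14.8 kb beyond the end of RNA45SN2, a ribosomal RNA precursor gene of the RefSeq table for GRCh38.p14. The site of chromosome 16 (chr16:34587884-34588530) was intergenic and held 31 copies of GGAAT on either strand, which made up 24.0% of its bases. The site of chromosome 17 at chr17:26881045-26881707 matched itself at 58.3% of its bases when shifted by 171 bases, the length of an alpha satellite monomer. The other site of chromosome 17 shown above, which holds a CENP-B box, matched itself at only 32.9% at its best shift near that length. For comparison, the middle 200 bases of the HU peak with a mean fold enrichment among the highest, in an intron of RPGRIP1 (chr14:21338332-21338916), are shown in lower case throughout. This peak held no CENP-B box and no tandem GGAAT, and it matched itself at 31.3% of its bases at the best shift near that length. The self-match thus hardly set the chromosome 17 site with the CENP-B box apart from this peak.
chr14:21338524-21338723: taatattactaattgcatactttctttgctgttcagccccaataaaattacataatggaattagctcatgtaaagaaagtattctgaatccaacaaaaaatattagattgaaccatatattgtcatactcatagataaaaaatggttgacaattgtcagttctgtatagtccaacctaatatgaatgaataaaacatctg

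Peaks were sparser around the centromeres than elsewhere in all 8 lists. The windows held 6.98% of the assembled autosomal bases but 2.78% and 2.94% of the autosomal peaks of the untreated lists. With APH they held 3.05% and 3.04% of the peaks, with HU 2.74% and 2.70%, and with MMS 3.46% and 3.65%. In peaks per assembled Mb, the windows reached 0.692 and 0.661 untreated, 2.80 and 2.22 with APH, 11.4 and 9.82 with HU, and 2.19 and 1.99 with MMS. All of these lay below the density of the same list outside, which was 1.81 and 1.64, 6.68 and 5.30, 30.3 and 26.5, and 4.59 and 3.93 in the same order. The ratio of both densities was 0.392 ± 0.0152 (SD, n = 2) without treatment, 0.419 ± 0.00116 with APH, 0.373 ± 0.00359 with HU and 0.491 ± 0.0194 with MMS. Over the 8 lists the mean log2 ratio was -1.26, a density 0.417 times that of the rest (exact sign-flip permutation test over lists, two-sided, p = 0.00781, the smallest that 8 lists can give). The p-values compare these lists of 1 cell line and share 1 input.

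The size of this difference depended on the bases over which the density was counted. Satellite arrays, found as tandem repeats with a period near that of alpha satellite, made up 34.5% of the assembled bases of the windows and 0.0279% of the rest. Simulated read pairs from 59.7% of the assembled bases of the windows aligned back to their origin alone, against 95.1% in the rest. Genes covered 32.1% of the window bases and 63.8% of the rest. Over uniquely alignable bases the ratio was 0.664 on average and ranged from 0.590 with HU to 0.805 with MMS, below 1 in 8 of 8 lists (exact sign-flip permutation test, two-sided, p = 0.00781). Peaks in genes per uniquely alignable base in genes, an alternative chosen after the data were seen, gave a mean ratio of 0.861 with 6 of 8 lists below 1, both MMS lists lying above it (1.01 and 1.06; exact sign-flip permutation test, two-sided, p = 0.0313). How far unequal alignability and gene content account for the sparser peaks was not tested beyond these values.

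**Figure D1:**
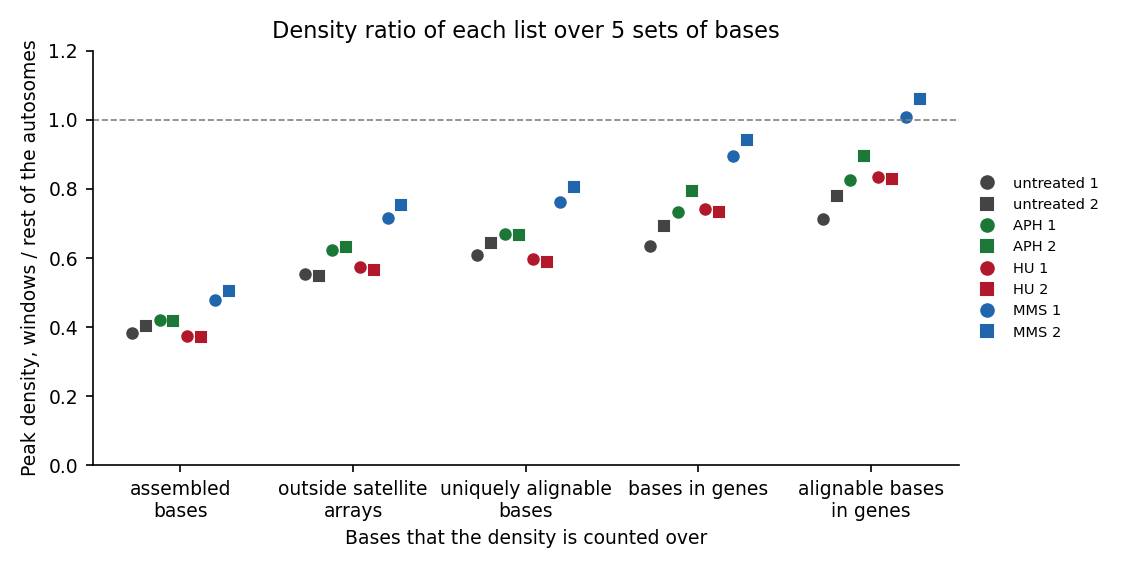
Peak density in the 22 windows divided by that in the rest of the autosomes (y axis, no unit) for each of the 8 lists, counted over 5 sets of bases (x axis); circles are replicate 1, squares replicate 2, and the dashed line marks equal density. The ratios lay between 0.370 and 0.505 over assembled bases and between 0.714 and 1.06 over alignable bases in genes.

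Without treatment and with MMS the order reversed among the few peaks of low q-value, which were counted after the data were seen. At a q-value of at most 0.05, 7 and 8 pericentromeric peaks remained without treatment against 35 and 14 in the rest of the autosomes, a density ratio of 2.67 and 7.62. MMS gave 5 and 8 peaks with ratios of 4.45 and 8.89, and APH 6 and 11 peaks with ratios of 0.879 and 0.853. With HU, 1689 and 1081 peaks remained and the ratios were 0.369 and 0.351. Of the peaks kept in the 6 lists other than HU, 3 to 5 in each list lay in satellite arrays. Without treatment and with MMS, most of the peaks kept lay at a few sites that recurred between these lists, such as the sites shown first. The high ratios of these lists thus rest on a few recurring sites and do not describe a density spread over the windows. The mean log2 ratio of the 8 lists was then 0.79, with no difference from equal density beyond the spread between lists (exact sign-flip permutation test, two-sided, p = 0.297). Because lists share such sites, they are not independent in this test.

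Counted over the whole windows, the density ratio lay highest with MMS. The mean log2 density ratio with MMS was 0.32 above that of untreated cells, which is 1.25 times, and both MMS lists lay above both untreated lists. With APH it was 0.10 above, and both lists again lay above the untreated ones. With HU it was 0.07 below (-0.07), and both lists lay below the untreated ones, while with the array bases left out it was 0.05 above. With 2 lists against 2, the exact permutation test gave p = 0.333 in each contrast, the smallest value it can reach, and 0.333 after adjustment over the 3 contrasts. The 6 treated lists together differed from the untreated lists by 0.11 (exact permutation test, two-sided, p = 0.429; smallest possible 0.0357). These contrasts share the untreated lists. Within 2.5 Mb of the centres the treated, APH, HU and MMS differences were -0.11, -0.18, -0.40 and 0.24, and among peaks with q at or below 0.05 they were -1.85, -2.38, -3.65 and 0.48, so that HU then lay farthest from untreated cells. Among peaks found in both replicates the 6 treated lists lay 0.87 above, and the HU difference turned to 0.88. No p-value is given for these, since both lists of a condition then hold the same sites, with 11 such peaks in the windows in each untreated list.

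With distance from the centre, peak density rose steeply and was close to 0 over the innermost Mb. Within 1 Mb of the centres, 2 and 2 untreated, 3 and 4 APH, 0 and 0 HU, and 1 and 2 MMS peaks were found on 42.3 Mb of assembled bases, of which 16.3% were uniquely alignable and 86.1% lay in satellite arrays. From 1 to 2 Mb, the density reached 0.151 ± 0.0528 (SD, n = 2) times the autosomal density of the list without treatment, 0.120 ± 0.0259 with APH, 0.0725 ± 0.00216 with HU and 0.113 ± 0.0334 with MMS. Per alignable base the values of this ring were 0.315, 0.250, 0.151 and 0.235, and those of the innermost Mb were 0.164, 0.0846, 0 and 0.0507, in the same order of conditions. From 2 to 3 Mb it lay, per assembled base, between 0.489 and 0.721 in all conditions. From 3 to 4 Mb, MMS reached 0.960 ± 0.0377, while the other conditions lay between 0.764 and 0.802.

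Across the outer limit of the windows HU changed most. HU density stepped from 0.682 ± 0.0140 at 4 to 5 Mb to 1.26 ± 0.0186 at 5 to 6 Mb, and it stayed at 1.33 and 1.39 over the next 2 Mb. Untreated density was 0.705 ± 0.0669 and 1.005 ± 0.000651 on either side. Within 0.5 Mb of the limit, HU 1 held 348 peaks just inside and 550 just outside, and HU 2 held 301 and 476. Values for the other lists hardly differed across the limit, with 24 and 26 or 21 and 24 untreated peaks, 105 and 104 or 89 and 87 APH peaks, and 69 and 71 or 58 and 60 MMS peaks, inside and outside. Only 3.98% and 3.87% of the pericentromeric HU peaks lay within 2 Mb of a centre, against 7.52% and 11.02% without treatment, 7.24% and 5.87% with APH, and 4.03% and 6.02% with MMS.

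**Figure D2:**
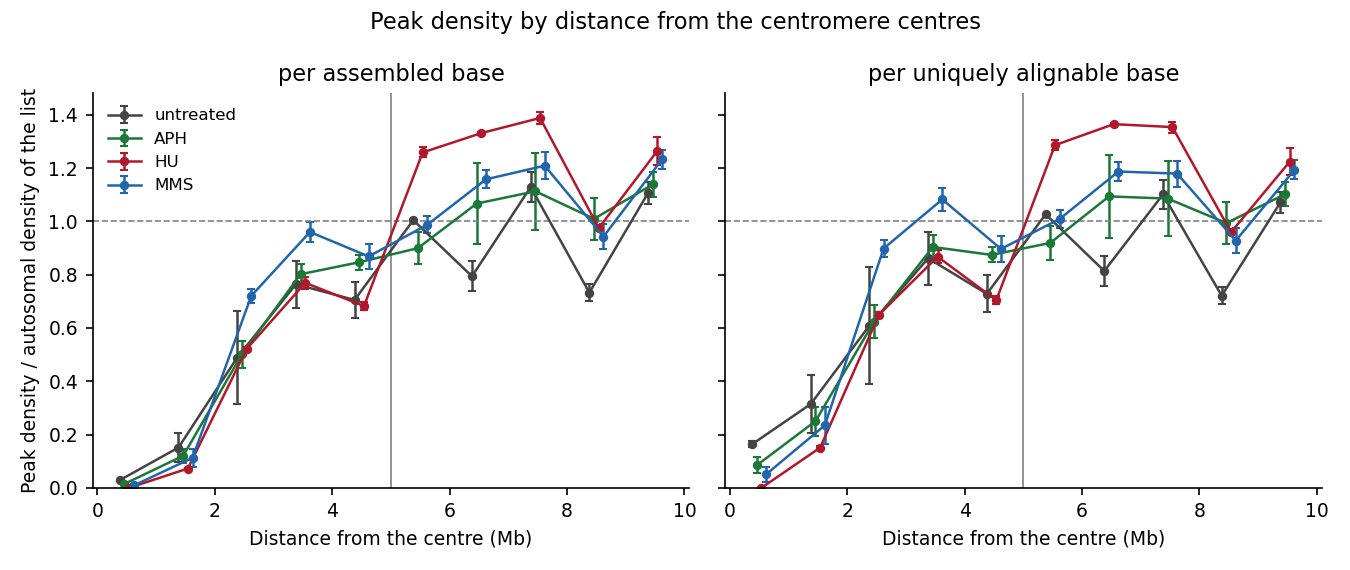
Peak density of each condition in rings of 1 Mb of distance from the centres (x axis, Mb) relative to the autosomal density of the same list (y axis), per assembled base on the left and per uniquely alignable base on the right; points are means of 2 lists, bars their SD, the vertical line the outer limit of the windows. All 4 conditions rose from below 0.03 in the innermost ring per assembled base, and HU reached 1.39 between 7 and 8 Mb.

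Each window was compared with the list average, as were 280 bins of 10 Mb that tiled the rest of the autosomes. The expected number of peaks was taken from the assembled bases of the region, and 0.5 was added to observed and expected numbers. After Benjamini-Hochberg adjustment over all 302 regions, 19 of 22 windows (86.4%) were lower than the list average and 1 (4.55%) was higher (exact sign-flip permutation tests over the 8 lists, adjusted p at most 0.05). Of the bins, 49.6% passed as lower and 30% as higher, so regional departures were the rule along the autosomes and the share of lower windows stood above that background. Per uniquely alignable base, 14 windows (63.6%) were lower and 3 (13.6%) higher, beside 51.1% and 29.6% of the bins, so the share of lower windows lay closer to that background. The median window lay at 0.327 times the list average per assembled base and the median bin at 0.729 times. Per alignable base these medians were 0.437 and 0.710 times.

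The window of chromosome 17 (chr17:20100001-30100000) was the densest and was above the average in 8 of 8 lists. It held 27 and 19 peaks without treatment, 88 and 57 with APH, 412 and 356 with HU, and 70 and 50 with MMS. Its log2 ratio lay between 0.19 and 0.68 with a mean of 0.47, a density 1.38 times the average (exact sign-flip permutation test, adjusted p = 0.0113). Per alignable base its density was 2.16 times the average. The window of chromosome 20 followed with 18 and 10, 77 and 61, 308 and 291, and 68 and 43 peaks in the same order of conditions. It was above average in 7 of 8 lists, with untreated 2 at -0.58, and did not pass per assembled base (mean log2 ratio 0.18; exact sign-flip permutation test, adjusted p = 0.238). Without untreated 2, 2 windows passed as higher, and none did at a fold enrichment of 3 or more. Chromosome 2 was 0.825 times the average per assembled base and 1.29 times per alignable base, and passed the test in each of these opposite directions.

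Per assembled base, the windows of chromosomes 3, 5 and 15 were the emptiest. Chromosome 3 held 1 and 1 untreated, 1 and 3 APH, 4 and 5 HU, and 2 and 1 MMS peaks on 9.87 assembled Mb, a density 0.0421 times the average. Chromosome 5 held 2 and 1, 2 and 4, 6 and 2, and 1 and 1 peaks on 9.85 Mb (0.0441 times). Chromosome 15 held 3 and 0, 2 and 3, 7 and 5, and 2 and 4 peaks (0.0779 times), but only 24.6% of its 6.71 assembled Mb were alignable, and per alignable base its density was 0.279 times the average. The windows of chromosomes 3 and 5 were 74.1% and 64.5% alignable and stayed at 0.0525 and 0.0630 times per alignable base. On that scale chromosomes 6, 21, 7 and 16 followed, at 0.125, 0.215, 0.223 and 0.257 times.

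The 5 acrocentric chromosomes differed from each other. Together they held 26 and 31 untreated, 82 and 69 APH, 397 and 326 HU, and 78 and 72 MMS peaks, or 15.2% to 24.4% of the pericentromeric peaks of a list. Chromosome 14 held 13 and 9 untreated, 12 and 13 APH, 169 and 113 HU, and 14 and 20 MMS peaks, so that its mean log2 ratio was 0.15 without treatment, -1.39 with APH, -0.21 with HU and -0.51 with MMS. It did not pass as lower (exact sign-flip permutation test, adjusted p = 0.0846). Chromosome 22 held 4 and 12, 40 and 29, 129 and 120, and 36 and 24 peaks, and chromosome 13 held 3 and 4, 21 and 21, 86 and 79, and 21 and 16. Chromosome 21 held 3 and 6 untreated, 7 and 3 APH, 6 and 9 HU, and 5 and 8 MMS peaks, so its number hardly moved between conditions while the HU lists were many times longer. Its mean log2 ratio was -1.69 without treatment and -4.96 with HU.

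The order of the windows was much the same in the conditions. Spearman's rho of the window log2 ratios over the 22 windows was 0.84 to 0.98 between replicates and 0.76 to 0.95 between conditions, given as a description because the windows share alignability and array content in every list. Windows that stood out by condition were picked after their values were seen. Chromosome 19 held 38 and 27 peaks with APH and 41 and 50 with HU, at mean log2 ratios of -0.81 and -2.55. Chromosome 6 held 3 and 2 peaks with APH and 53 and 34 with HU, at -4.21 and -2.59. Chromosome 16 held 2 and 5 untreated peaks but 3 and 2 with HU, at -1.54 and -5.84. With 2 lists in each condition, these differences could not pass an exact test.

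**Figure D3:**
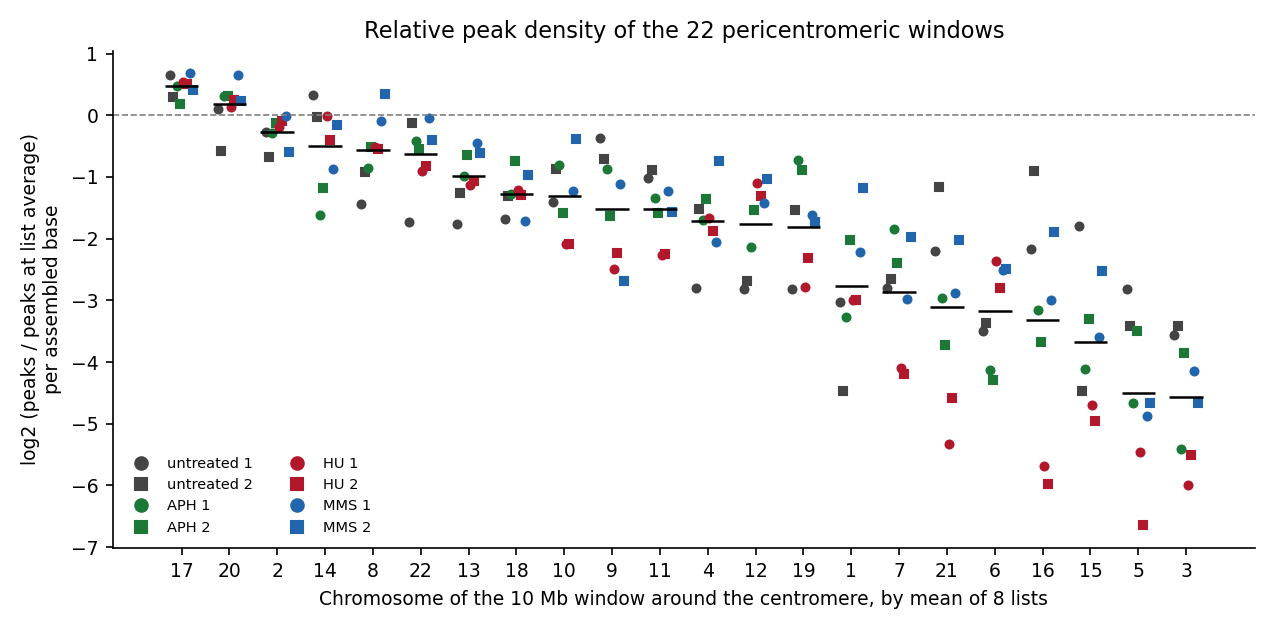
Log2 ratio of observed to expected peaks per assembled base (y axis, 0.5 added to each) in the window of each chromosome (x axis, ordered by mean) for the 8 lists; circles are replicate 1, squares replicate 2, black bars the mean of 8 lists, and the dashed line the list average. Chromosome 17 was above the line in 8 of 8 lists, and chromosomes 3 and 5 were near -4.5 on average.

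Pooled over the 17 chromosomes that are not acrocentric, the long arm side of the windows was denser than the short arm side in all 8 lists. The sides were not compared chromosome by chromosome. The windows of chromosomes 17, 20, 2 and 8 held 35.4% to 53.9% of the pericentromeric peaks of a list and so weigh heavily in the pooled values. The long arm side held 70 and 56 peaks untreated against 37 and 40, 297 and 214 with APH against 160 and 143, 1121 and 1015 with HU against 668 and 547, and 204 and 179 with MMS against 140 and 131. The mean log2 ratio of the densities was 0.84, or 1.79 times, with single lists between 1.52 and 2.10 times (exact sign-flip permutation test, two-sided, p = 0.00781). Per alignable base the mean was 0.73, and at a fold enrichment of 3 or more it was 0.64 and did not pass (exact sign-flip permutation test, p = 0.0703).

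Within the windows, the satellite arrays held few peaks, and none with HU. The arrays covered 66.4 Mb of the windows, of which 11.05 Mb were alignable. They held 7 and 14 of the untreated peaks, 16 and 5 of the APH peaks, 0 and 0 of the HU peaks, and 8 and 9 of the MMS peaks. Per Mb this was 0.105 and 0.211 untreated against 1.001 and 0.898 in the rest of the windows, 0.241 and 0.0753 against 4.16 and 3.35 with APH, and 0.120 and 0.136 against 3.29 and 2.96 with MMS. With 0.5 added to each number the mean log2 ratio was -5.72 (exact sign-flip permutation test, two-sided, p = 0.00781), and it was -5.14 with the HU lists set to the 3 peaks that a count of 0 allows and -3.94 over the 6 other lists. For HU, 0 of 2186 and 0 of 1888 peaks allow a share of up to 0.137% and 0.159%, and the array density per assembled base was at least 385-fold and 332-fold lower than in the rest of the windows, for counting error only. Per alignable base the mean log2 ratio was -3.42 (exact sign-flip permutation test, two-sided, p = 0.0156), the HU lists were at least 77.6-fold and 67.04-fold lower, and the other lists reached ratios from 0.111 in APH 2 to 1.16 in untreated 2.

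The 59 peaks in arrays, summed over the lists, came from 7 chromosomes and were of more than 1 kind of repeat. Chromosome 17 held 27 of them, with 4 to 6 in each list other than HU, and 18 of the 27 contained a CENP-B box. Most of the 27 were the same few sites counted again in each list, such as chr17:26603528-26604293 with a peak in 6 lists. They are thus not independent peaks. All 10 array peaks of chromosome 10, all 10 of chromosome 21 and 6 of 9 of chromosome 20 contained GGAAT in 2 tandem copies and no CENP-B box, since a unit of 5 bases also repeats at a multiple of its length close to that of the alpha satellite monomer. Chromosomes 3, 11 and 19 held 1 array peak each. Over all windows, the middle 300 bases of 54.3% of the 1 kb bins in arrays held a CENP-B box, against 0.225% of the bins outside arrays and 0.0124% of those in the rest of the autosomes. Of the pericentromeric peaks, the middle 300 bases held a box in 0 or 1 peak of each list, or at most 0.752%. With HU it was 0 of 2186 and 0 of 1888. For all window bins this share was 18.8%, and for the alignable ones 1.40%. The untreated lists, with 133 and 127 pericentromeric peaks, are too short to set such counts apart from 1.40%. The array peaks above were searched over their whole width, so their counts are not comparable with these shares. Tandem GGAAT was found in 0.713% of all window bins, in 0.956% of the alignable ones and in 0.129% of the bins elsewhere. It occurred in 2 and 9 untreated, 10 and 0 APH, 6 and 3 HU, and 4 and 5 MMS peaks of the windows, or 1.504% and 7.09%, 1.86% and 0%, 0.275% and 0.159%, and 0.948% and 1.31%. A match to these letters is a description of the sequence and does not show that a protein was bound there.

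Only 2 of 4289 merged pericentromeric sites (0.0466%) held a peak in all 8 lists, beside 0.0441% of all merged autosomal sites, and 73.0% of the pericentromeric sites and 71.0% of the others were found in a single list. The site of chromosome 21 beside the ribosomal RNA gene had a fold enrichment of 2.43 and 2.78 without treatment, 3.02 and 2.64 with APH, 2.61 and 2.42 with HU, and 2.53 and 2.70 with MMS. Its −log10 p was 41.4 and 57.2, 66.1 and 37.1, 41.4 and 29.1, and 37.9 and 41.0 in the same order. In each of the 8 lists it ranked the 1st of all autosomal peaks by p-value, and the conditions overlapped.

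The GGAAT-rich site of chromosome 16 was weaker with HU than in the other conditions. Its fold enrichment was 1.67 and 1.73 untreated, 1.78 and 1.67 with APH, 1.32 and 1.35 with HU, and 1.67 and 1.75 with MMS, with −log10 p of 36.8 and 41.4, 44.8 and 27.5, 7.47 and 8.01, and 31.0 and 35.2. Both HU lists lay below the 6 others, which overlapped. The alpha satellite site at chr17:26881045-26881707 was absent from both HU lists and had a fold enrichment of 1.79 and 1.86 untreated, 1.89 and 1.81 with APH, and 1.88 and 1.80 with MMS, with −log10 p from 13.6 to 19.5. The array sites at chr17:26603528-26604293 and chr17:25919880-25920581 showed the same pattern of lists, with fold enrichments of 1.37 to 1.56 and 1.80 to 2.06. These 3 sites were named after their values were seen, for a q-value of at most 0.05 in all 6 lists other than HU. As merged sites, these 3 were classed as not uniquely alignable, as was the midpoint bin of each peak at chr17:26881045-26881707. Untreated 1 had a peak at each of the 3 but only 2 window peaks with such a midpoint bin. Not every peak midpoint at these sites thus lay in an unalignable bin. Of the 11 sites with a peak in 6 or more lists, the rest are not described here.

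**Figure D4:**
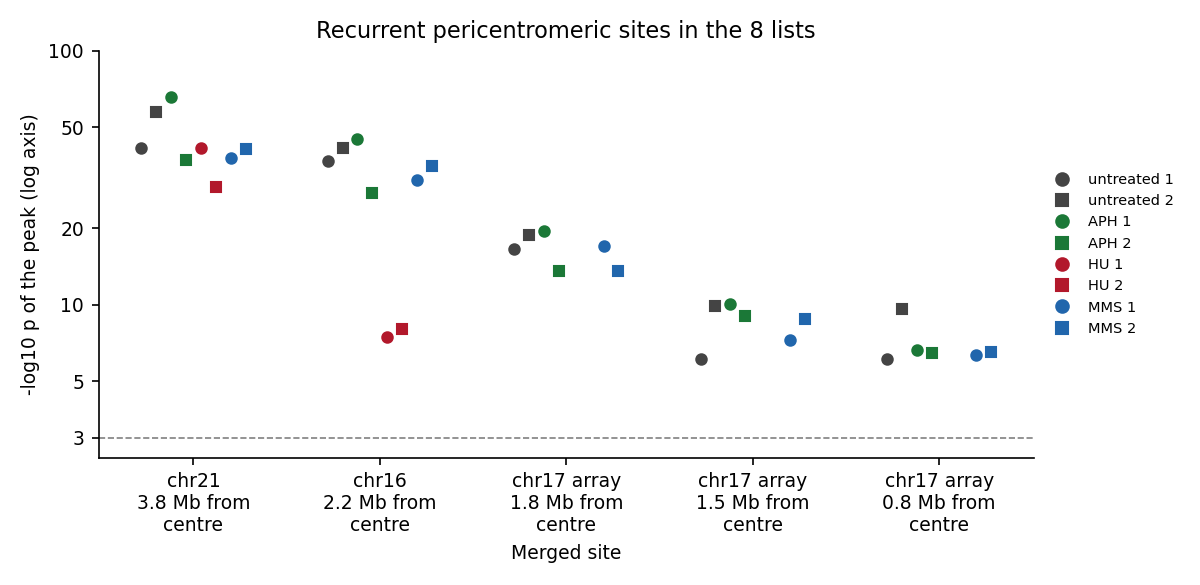
The −log10 p of the peak (y axis, log scale) in each list at 5 recurrent pericentromeric sites (x axis, with the distance from the centre); circles are replicate 1, squares replicate 2, a list without a point has no peak there, and the dashed line marks 3, the caller's limit. HU has no point at the 3 array sites of chromosome 17 and lies lowest at the site of chromosome 16. These array sites were chosen for low q-values in the other lists.

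Differences in strength and width between pericentromeric and other peaks were small and did not pass over the whole windows. The median fold enrichment inside and outside the windows lay between 2.51 and 2.77 in the 8 lists, and it was lower inside in 7 of them, the exception being MMS 1 with 2.65 inside and 2.64 outside. The mean log2 difference over the 8 lists was -0.0067 (exact sign-flip permutation test, adjusted over 4 properties, p = 0.0729), and it passed within 2.5 Mb of the centres (-0.0199; exact sign-flip permutation test, unadjusted p = 0.0234), in the stronger 50% of peaks and without MMS 1. The median width was 502 and 528 bp inside against 536 and 550 bp outside without treatment, 561 and 544.5 against 562 and 555 bp with APH, and 731 and 716.5 against 764 and 744 bp with HU. MMS alone went the other way, with 530 and 548 against 519 and 530 bp. Over the 8 lists the difference did not pass (mean log2 difference -0.03; exact sign-flip permutation test, adjusted p = 0.148). Peaks of 2 kb or more were 0% of the pericentromeric peaks in both untreated lists, beside 5.04% and 4.69% elsewhere, and 10.8% and 9.69% with HU, beside 13.02% and 11.3%. With APH they were 0.557% and 0% beside 2.52% and 2.37%, and with MMS the shares inside were the higher ones, 1.18% and 0.524% beside 0.552% and 0.456%.

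Pericentromeric peaks recurred less often in the other replicate, and a smaller share of them lay in genes. The share that overlapped a peak of the other replicate was 8.27% and 8.66% without treatment against 16.2% and 19.7% outside, and 6.31% and 7.98% against 10.5% and 13.5% with APH. With HU it was 39.3% and 47.4% against 43.4% and 51.1%, and with MMS 5.69% and 6.28% against 5.99% and 6.99%. All 8 lists had the lower share inside, by 4.69 percentage points on average (-4.69). No p-value is given for this share, since an overlap between replicates counts in both lists of its condition. Within 2.5 Mb of the centres the share was 2.85 points higher inside on average. A share of overlapping peaks grows with the density of the other list, which was lower inside the windows, and its part in the difference was not tested. The share of peaks with the midpoint in a gene was 53.4% and 55.9% against 64.01% and 64.9% without treatment, 59.7% and 65.7% against 68.2% and 68.9% with APH, 67.4% and 67.5% against 68.0% and 67.7% with HU, and 72.7% and 72.5% against 77.4% and 77.5% with MMS. The mean difference was -5.21 percentage points (exact sign-flip permutation test, adjusted p = 0.0156), and within 2.5 Mb of the centres it was -16.99 points. Genes covered 32.1% of the window bases and 63.8% of the rest. Relative to these shares of assembled bases, peaks were more concentrated in genes inside the windows than outside in each list. Part of this follows from the choice of bases. Of the uniquely alignable bases, genes covered 52.1 of 114.8 Mb in the windows and 1558 of 2438 Mb in the rest, a smaller contrast. For protein-coding genes alone, HU turned to 2.51 and 3.22 points higher inside, and the mean of -3.49 did not pass (exact sign-flip permutation test, unadjusted p = 0.102).

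The GC content of the 1 kb around the peak midpoint was 44.3% to 47.5% inside and 44.4% to 47.3% outside over the 8 lists, above the 40.1% of the assembled window bases and the 41.0% of the rest. In no list did the means inside and outside differ by as much as 1 percentage point.

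The sites of highest mean fold enrichment among those in both replicates of a condition lay in genes but for an HU site. By p-value, the intergenic site of chromosome 21 beside the ribosomal RNA gene ranked above them in each list. Without treatment the highest mean fold enrichments were found at chr21:10431888-10432627, in an intron of the long non-coding RNA gene ENSG00000290523 (2.73 and 2.61), which was also the widest, and at chr8:47978893-47979583 over RNU6-519P, a U6 small nuclear RNA pseudogene (2.69 and 2.63). With APH they were found at MAP2K3, a kinase that activates p38 (chr17:21300607-21301572, reaching into an untranslated region, 2.81 and 3.06), and in an intron of HM13, a protease of signal peptides (chr20:31516249-31517573, 2.61 and 3.21), which was also the widest. With MMS they were found at SSRP1, a subunit of the histone chaperone FACT (chr11:57331498-57333015, 2.77 and 3.62), and again at MAP2K3 (chr17:21294518-21296456, 2.75 and 3.02). Of these peaks of the conditions they were chosen for, only that of SSRP1 in MMS 2 had a q-value under 0.05 (0.0468).

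The HU peaks passed the q-value limit more often. The 2 highest mean fold enrichments with HU were found at chr17:29233375-29235622, 11237 bases from CRYBA1, a lens crystallin (3.59 and 3.40, q = 0.000746 and 0.00481), and in the intron of RPGRIP1 shown above, a photoreceptor protein (3.59 and 3.20, q = 0.00109 and 0.0125). The widest recurrent HU peak covered 7656 and 7840 bp at POFUT1, an enzyme that adds fucose to Notch receptors, and the microRNA gene MIR1825 (chr20:32231063-32242133). The widest with MMS covered 1420 and 1521 bp at UNC119, a carrier of lipid-modified proteins, within RSKR (chr17:28548787-28550337).

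A smaller share of the protein-coding genes held peaks in the windows than over all autosomes. Of 726 protein-coding genes with their middle in a window, 15 (2.07%) held a peak in both untreated replicates, beside 3.07% of all autosomal protein-coding genes. With APH it was 83 (11.4%) beside 13.9%, with HU 278 (38.3%) beside 48.8%, and with MMS 91 (12.5%) beside 13.5%. The genes in the windows were shorter, with a median of 23.2 kb against 28.1 kb elsewhere. No test was run on these shares, and the part of gene length in them was not tested.

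Among all 3967 GENCODE genes of the windows, 8 (0.202%) held a peak in all 8 lists, beside 0.492% of all autosomal genes. The lists differ much in length, so several counts are also given relative to the number expected from the length of the gene and the autosomal peaks per assembled base of the list, which was below 1 peak for each gene named here without treatment. Overlapping genes share peaks, and ChIP does not tell strands apart, so an antisense gene and its partner cannot be separated. RSKR (chr17:28455752-28614197), whose annotation spans UNC119, PIGS, SPAG5 and other genes, held 3 and 2 untreated, 7 and 3 APH, 32 and 34 HU, and 3 and 1 MMS peaks, the most of any window gene in the untreated and in the HU lists. SUPT6H, a histone chaperone of transcription elongation close to it, held 1 and 1, 1 and 1, 10 and 11, and 3 and 2. KSR1, a scaffold of the Ras pathway on the same chromosome, held 1 and 2 untreated, 10 and 5 APH, 12 and 10 HU, and 10 and 6 MMS peaks, the highest count with APH and MMS. Relative to the expected number, RSKR reached 10.9 and 8.04 times without treatment, 6.90 and 3.73 with APH, 6.97 and 8.46 with HU, and 4.28 and 1.66 with MMS, so that HU overlapped the other conditions. KSR1 reached 3.39 and 7.49, 9.18 and 5.79, 2.44 and 2.32, and 13.3 and 9.30 times, and both HU lists lay below the 6 others. RSKR and KSR1 were named for their counts in some of these lists, which limits such comparisons.

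The other genes with a peak in all 8 lists were spread over chromosomes 2, 8, 10, 17 and 22. CCNY, a cyclin, held 2 and 1, 3 and 1, 20 and 13, and 4 and 9 peaks on 326 kb. MICAL3, an oxidoreductase that acts on actin, held 1 and 2, 8 and 5, 12 and 12, and 9 and 5. SPIDR, a scaffold of recombination repair, held 1 and 1, 4 and 6, 6 and 4, and 4 and 5 on 475 kb. Relative to the expected number, SPIDR was at 0.435 and 0.332 times with HU, and the 6 other lists lay between 1.21 and 2.77 times. These genes were named for a peak in each list, and 1 peak in SPIDR was already 1.21 and 1.34 times without treatment. Its untreated values could thus not have been lower. The antisense genes STARD7-AS1 and ABHD15-AS1 held 1 to 5 and 1 to 10 peaks in a list.

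TMEM241 held 25 and 25 peaks with HU against 0 and 1 untreated, 4 and 8 with APH, and 4 and 4 with MMS. Relative to the expected number this was 3.58 and 4.09 times with HU, 2.59 and 6.54 with APH, and 3.75 and 4.37 with MMS, which overlapped. RPGRIP1 held 23 and 21 with HU and 0 to 2 in each of the 6 other lists. Relative to the expected number this was 11.1 and 11.6 times against 0 to 8.10 times. TMEM241 and RPGRIP1 were named for their HU counts. PIPOX, an oxidase of peroxisomes, MYO18A, a myosin, and MICAL3 tied behind KSR1 among the APH counts. In this order they held 8 and 5, 9 and 4, and 8 and 5 peaks with APH. With HU they held 24 and 12, 15 and 14, and 12 and 12. Without treatment 3 peaks over both replicates also fell in MAP2K3, MYO18A, MICAL3, DGCR2, KSR1, CCNY and ENSG00000254979, which tied. They were named for these untreated counts, and in MAP2K3 the 1 peak of untreated 2 was already 20.8 times the expected number. MAP2K3, in contrast to RSKR, held 1 and 0 peaks with HU against 2 and 1 untreated, 2 and 3 with APH, and 3 and 3 with MMS, or 1.13 and 0 times the expected number against 10.2 to 37.7 times in the 6 other lists.

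**Figure D5:**
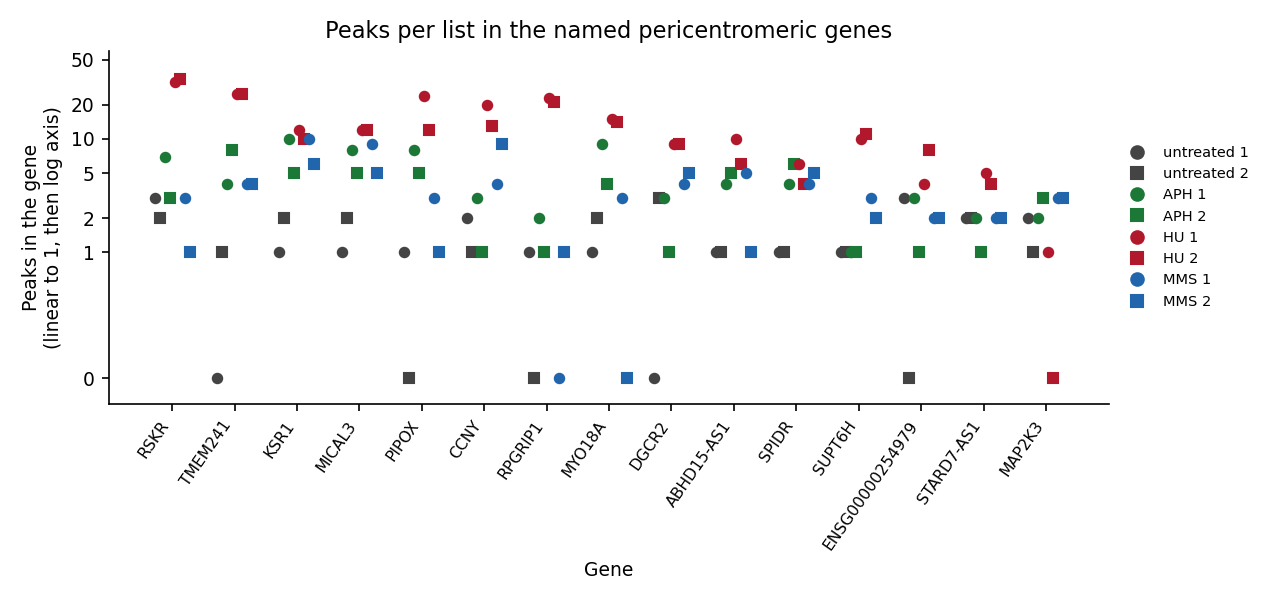
Peaks in each named pericentromeric gene (x axis) in the 8 lists (y axis, number of peaks, linear up to 1 and logarithmic above); circles are replicate 1, squares replicate 2. Counts are not adjusted for the length of the lists, HU having the most peaks. HU lies highest at RSKR, TMEM241 and RPGRIP1, while MAP2K3 has 1 and 0 HU peaks. Genes were named by rules that used these counts.

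Most gene families examined around the centromeres held peaks in a smaller share of their members than outside, except that POTE and IGKV genes held none in either place. No peak in any list fell in the 10 POTE genes, the 95 IGKV segments of the immunoglobulin kappa locus or the 4 TPTE genes of the windows, and outside them the shares were 0%, 0% and 25%. Of 15 GOLGA genes 1 held a peak, with HU alone, and of 30 ANKRD genes 3 did, each under both APH and HU, against 19.6% of the GOLGA and 50% of the ANKRD genes outside the windows in any list. Of 224 olfactory receptor genes 7 held a peak in at least 1 list (3.13%, beside 4.87% outside). Zinc finger genes of the ZNF series held a peak in 26 of 85 cases (30.6%, beside 66.1% outside), which were 4 untreated, 11 APH, 17 HU and 17 MMS genes, and LINC genes in 31 of 120 cases (25.8%, beside 38.6%), with 5, 21, 16 and 11. Both shares lay above that of all window genes. Over all genes, 714 of 3967 in the windows (18.0%) and 39.95% of those outside held a peak in at least 1 list. Whether the bases of these genes were alignable was not tested, nor was the part of gene length in these shares.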

How the data were processed

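γH2AX ChIP-seq of 8 libraries was analysed from the peak lists. Per the study's methods, the authors trimmed paired reads, aligned them to GRCh38 with Bowtie2 at default settings, discarded poorly mapped reads, PCR duplicates and blacklisted regions, handled files with SAMtools, and ran MACS2 for broad peaks against input, replicate by replicate. The labels name no tool versions. The deposited lists give, as the authors' caller wrote them, a score (not used), the enrichment as a fold (ratio), and both −log10 of p and −log10 of q. Depth is unknown, so precision rests on the 2 replicates of each condition, grouped by the sample labels. Replicates were not copies of each other.

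Assembled bases, GC and satellite arrays were computed from the reference in 1 kb bins. No annotation of centromere models was used here. Arrays were instead bins in which at least 50% of bases matched at the best shift of 169 to 173 bases, after smoothing, and they include other satellites whose unit divides such a shift. A bin was uniquely alignable where a pair of reads of 100 bases from its fragment of 250 bases aligned back with minimap2 2.31 at a mapping quality of at least 40 for both reads. Genes came from GENCODE 44. Peaks were assigned by midpoint, and those of 2 lists were shared where they overlapped by at least 1 bp. Tests were exact sign-flip tests over 8 lists and exact permutation tests between groups (python 3.11.15, numpy 2.4.6, pandas 2.3.3), checked on simulated lists. With 302 regions tested, at least 48 had to reach the smallest p of 0.00781 for any to pass.

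The windows, gene families, tests and rules were chosen with earlier results of these data known. The rules named, for each condition, the 2 recurrent peaks of highest mean fold enrichment, the widest recurrent peak and the 3 genes with the most peaks, with ties, and also sites and genes with a peak in all 8 lists, the 3 highest and 3 lowest windows, acrocentric windows and those with array peaks. Alternatives were other bases, other peaks (stronger 50%, fold enrichment of at least 3, found in both replicates), windows of 2.5 Mb on each side, bins of 5 Mb, covered bases and leaving out lists. A q-value limit of 0.05 and bases in genes were added after the data were seen.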

Additional observations from a re-analysis of the deposited data

Results flagged for a closer look

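The median width of pericentromeric peaks relative to other peaks of the same list went in opposite directions between MMS and each other condition, and this difference was not tested. Inside minus outside on the log2 scale was 0.03 and 0.05 in the MMS lists, and -0.09 and -0.06 in the untreated lists, -0.0026 and -0.03 in the APH lists, and -0.06 and -0.05 in the HU lists. The difference of the means was -0.116 for untreated cells against MMS, -0.0543 for APH against MMS and -0.0982 for HU against MMS.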

How the results depend on the processing

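Of 184 values under other settings, 161 kept their direction and side of the threshold. The HU difference from untreated cells (-0.07, log2) turned to 0.048 outside arrays, 0.022 against the rest of the same chromosome, 0.88 with peaks of both replicates, 0.43 for covered bases, 0.16 for bases in genes, alignable or not, and 0.0075 without the acrocentric chromosomes. With windows of 2.5 Mb on each side the treated, APH and HU differences were -0.11, -0.18 and -0.40, the share in genes differed by -16.99 points, the width difference 0.051, the difference in the share found in the other replicate 2.85 points, and that in fold enrichment -0.0199, which passed (exact sign-flip permutation test, p = 0.0234). With peaks of both replicates the treated difference was 0.87, where both lists of a condition hold the same sites and the test counts each condition more than once. At a q-value of at most 0.05 the mean log2 density ratio was 0.79 (1.72 times) and the treated, APH and HU differences were -1.85, -2.38 and -3.65. Windows called higher were 3 per alignable base and 0 at a fold enrichment of at least 3, and 1 to 2 without each list in turn, with 2 without untreated replicate 2. The arm difference at a fold enrichment of at least 3 was 0.64 (exact sign-flip permutation test, p = 0.0703), and the share in protein-coding genes differed by -3.49 points. The fold enrichment difference was -0.0088 in the stronger 50% of peaks and -0.0085 to -0.0046 without each list in turn, passing without MMS replicate 1. The causes were not tested.

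At a fold enrichment of at least 3, untreated replicate 2 held no peak in the windows, so the density ratio, its contrasts and the peak properties were not computed. The replicate numbers of the labels are shared by the conditions. Deviations of same-numbered lists over 302 regions correlated at 0.094 for untreated and APH, -0.084 for untreated and HU, 0.031 for untreated and MMS, -0.304 for APH and HU, 0.186 for APH and MMS, and -0.265 for HU and MMS. The labels do not tie a number to a shared day or batch, and not every correlation was over 0.1, so the numbers were not used as pairs. With the replicate block the 4 differences from untreated cells stayed at 0.11, 0.10, -0.07 and 0.32 (exact permutation test, p = 0.5, the smallest that 2 pairs can give), and no call changed.

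Unknown depth limits each list. In the 6 lists other than HU few peaks pass a q-value limit. Alignability was computed from simulated reads of the reference and not from the study's reads.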
